A study of Mus musculus with 4 samples.

Results

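The oxidative phosphorylation genes are the genes of the 5 complexes of the mitochondrial inner membrane that pass electrons to oxygen and make ATP. They were chosen by symbol alone, that is all symbols beginning with Nduf followed by a, b, c, s or v and a number, the symbols Sdha to Sdhd, and all symbols beginning with Uqcr, with Cox4 to Cox8, with Atp5, or with mt-Nd, mt-Co, mt-Atp or mt-Cytb. This gave 97 of the 31053 genes in the count matrices. Of the members, 84 lie in the nucleus, 37 in complex I, 4 in complex II, 8 in complex III, 18 in complex IV and 17 in complex V, and 13 are encoded by the mitochondrial genome, 7 for complex I, 1 for complex III, 3 for complex IV and 2 for complex V. GENCODE M21, an annotation of GRCm38, lists all 97. The symbols of Cyc1, Cycs, Ndufab1 and the ATP synthase inhibitor Atpif1 do not meet the rule, and these genes are described with the other lists.

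Single-cell RNA was measured by 3′ sequencing on the 10x Genomics platform in thymus cells of FVB/N mice, 1 mouse to a library. The 4 libraries are a wild type thymus (WT, 6 weeks), a preleukemic thymus of a Tal1/Lmo2 transgenic mouse (6 weeks) and thymi with leukemia from 2 Tal1/Lmo2 transgenic mice (T-ALL#1 and T-ALL#2, 3 months, together the leukemic group). In all 3 transgenic mice the proximal Lck promoter, which acts in thymocytes, drives both transgenes. Age moves with leukemia, WT and preleukemic groups are 1 mouse each, and more than 1 chemistry version is given without a library, so genotype, age, animal, sex and chemistry cannot be told apart between libraries.

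Complex I (NADH dehydrogenase) and complex II (succinate dehydrogenase) pass electrons to ubiquinone, complex III passes them to cytochrome c, and complex IV passes them to oxygen. Complexes I, III and IV pump protons, and complex V, the ATP synthase, lets them flow back and makes ATP. Complex II is built from nuclear genes alone, and each of the other complexes joins nuclear subunits, made in the cytosol and imported, to a core made inside the mitochondrion. Thymocytes divide fast after beta selection and then come to rest as small double-positive cells, and these phases are known to differ in their use of mitochondria.

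NRF1 and ETS motifs, which the rule did not use, were more frequent in promoters of nuclear members than in those of all genes. RefSeq windows of GRCm38.p6, from 250 bases before to 50 bases after each transcription start, were matched by symbol for 66 of 83 distinct nuclear symbols. A match to the NRF1 motif (GCGC, any base, then TGCGC), read like all motifs on both strands, lay in the windows of 17 members (25.8%) against 5.19% of all 27025 genes in the table. The ETS motif CCGGAAG was in 16 members (24.2%) against 9.93% of all genes, and at least 1 of these motifs was in 29 members. The other motifs were near the share of all genes. The E-box CACGTG was in 5 members (7.58% against 8.09%), the CCAAT box in 29 (43.9% against 41.1%) and the GC box GGGCGG in 26 (39.4% against 38.2%). Of the 66 members, 12 held none of these motifs. A match is a run of letters in a window and not a measured binding site.

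Windows are shown for the members on which the results below turn. Cox5a (chr9:57520982-57521281, plus strand) had the largest difference between cycling and non-cycling cells, Atp5g1 (chr11:96075582-96075881, minus strand) had the largest ratio of leukemic to preleukemic level among members with a mean of at least 10 CPM (defined below), and Atp5h (chr11:115419870-115420169, minus strand) joins an NRF1 and an ETS match. Cox6b1 (chr7:30626065-30626364, minus strand) and Cox6b2 (chr7:4753045-4753344, minus strand) encode isoforms of the same subunit and behaved differently. Each sequence reads 5′ to 3′ along its gene and capitals mark motif matches. The capitals are GC boxes in Cox5a, CCAAT boxes and an E-box in Atp5g1 (2 of its CCAAT boxes overlap on opposite strands), an NRF1 match, CCAAT boxes and an ETS match in Atp5h, CCAAT boxes and an ETS match in Cox6b1, and CCAAT boxes and a GC box in Cox6b2.
Cox5a: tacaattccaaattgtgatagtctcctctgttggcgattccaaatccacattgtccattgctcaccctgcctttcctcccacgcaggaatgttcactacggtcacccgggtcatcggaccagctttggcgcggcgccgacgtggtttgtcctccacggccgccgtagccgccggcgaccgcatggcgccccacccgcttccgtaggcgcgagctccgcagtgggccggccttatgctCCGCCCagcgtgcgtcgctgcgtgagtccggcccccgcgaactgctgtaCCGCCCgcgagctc
Atp5g1: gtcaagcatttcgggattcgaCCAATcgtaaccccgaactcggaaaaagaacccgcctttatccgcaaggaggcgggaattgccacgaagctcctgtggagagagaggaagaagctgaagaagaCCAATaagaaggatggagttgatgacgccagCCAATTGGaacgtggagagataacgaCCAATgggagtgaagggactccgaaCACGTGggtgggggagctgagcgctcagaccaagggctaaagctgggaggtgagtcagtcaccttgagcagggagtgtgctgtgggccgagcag
Atp5h: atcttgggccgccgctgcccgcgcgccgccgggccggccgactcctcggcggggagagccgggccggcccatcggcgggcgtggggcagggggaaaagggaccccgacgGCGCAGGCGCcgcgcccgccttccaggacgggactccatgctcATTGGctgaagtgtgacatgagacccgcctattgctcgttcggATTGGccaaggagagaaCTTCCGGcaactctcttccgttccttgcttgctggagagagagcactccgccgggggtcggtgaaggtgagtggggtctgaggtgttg
Cox6b1: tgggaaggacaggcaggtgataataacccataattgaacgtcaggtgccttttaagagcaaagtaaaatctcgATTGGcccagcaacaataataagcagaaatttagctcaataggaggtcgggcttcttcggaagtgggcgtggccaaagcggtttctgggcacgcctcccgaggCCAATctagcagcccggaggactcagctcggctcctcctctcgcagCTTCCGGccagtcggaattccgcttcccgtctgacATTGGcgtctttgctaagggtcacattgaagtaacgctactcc
Cox6b2: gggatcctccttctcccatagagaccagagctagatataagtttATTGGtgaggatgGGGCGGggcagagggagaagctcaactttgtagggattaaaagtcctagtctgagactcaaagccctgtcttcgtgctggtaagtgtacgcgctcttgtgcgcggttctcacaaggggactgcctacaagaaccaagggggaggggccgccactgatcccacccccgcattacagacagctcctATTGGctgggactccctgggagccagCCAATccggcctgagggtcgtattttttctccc

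Cells were kept with over 500 genes and under 10% of UMIs (unique molecular identifiers, 1 for each captured transcript) from mitochondrial genes, which left 4220 of 5879, 5576 of 6964, 5773 of 7726 and 1975 of 2700 barcodes in WT, preleukemic, T-ALL#1 and T-ALL#2, the order used for every run of 4 values. The matrix of T-ALL#2 held all barcodes, and those of at least 3416 UMIs were taken as cells. Kept cells held 24042062, 40851235, 70745712 and 36236569 UMIs, with medians of 3800.5, 4888, 8742 and 17581 UMIs per cell, and 0 to 9 barcodes were shared by any pair of libraries. Tal1 was at 0 UMIs in WT (which allows up to 0.125 CPM) and at 409.6, 68.3 and 234 CPM in the transgenic libraries, where CPM are UMIs per 1000000 UMIs of the kept cells, and Lmo2 was at 0.915, 4.48, 0.368 and 0.276 CPM. In both leukemic libraries Lmo2 lay below WT, which goes against the Lmo2 part of their label, and whether transcripts of the transgene were counted under this gene was not tested. The libraries labelled WT and preleukemic, given as male, held 1380.2 and 1869 CPM of Xist and at most 5 UMIs of any of 4 Y-linked genes, against their sex label. T-ALL#1, given as female, held 1932 CPM of Xist, and T-ALL#2, given as male, held 0.0828 CPM of Xist with 40.6 CPM of Ddx3y and 55.7 of Eif2s3y, so sex by these genes differs within the leukemic group. The libraries are named here by their labels as given. T lineage markers summed to 4992, 3339, 4294 and 2963 CPM. Markers of other cell types were low, with 10.7, 16.6, 5.26 and 4.44 CPM for 5 B cell genes, 69.7, 10.4, 7.27 and 11.6 for 6 myeloid genes, 90.5, 0.367, 0.0424 and 0.248 for 6 erythroid genes, and 60.5, 74.8, 56.7 and 34.1 for 5 fibroblast and endothelial genes. Dendritic, epithelial and mast cell lists summed to at most 6.90 CPM in any library, and Krt5 was at 0 in all libraries. The part of other cell types, and of the sex of the mice, in the results was not tested.

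Nuclear members together made up a larger share of UMIs in both leukemic libraries than in the others. Their summed level was 22572, 22573, 28799.9 and 31609 CPM, so WT and preleukemic were level in this sum while the leukemic libraries were higher. As a mean over cells the values were 17516, 19031, 26334 and 29586 CPM, with preleukemic above WT. The mitochondrially encoded members summed to 46340, 48003, 55540.4 and 48741 CPM, highest in T-ALL#1. The counting error is small at this depth (for WT the exact Poisson 95% interval of the nuclear sum is 22512 to 22632 CPM) and covers counting alone, since 1 mouse stands behind each value and the spread between mice is not known. Other genes moved with these sums. The noncoding RNA Malat1, which stays in the nucleus, was at 34559, 29481, 15223 and 9325 CPM, 7 markers of the DN3 stage (an early double-negative stage) summed to 201, 222, 1270 and 736 CPM, and 5 double-positive markers to 2582, 540.03, 860.3 and 279 CPM. The part of these in the sums was not tested. The median cell gave 1.78, 1.82, 2.62 and 3.06% of its UMIs to nuclear members. Because fewer cells of a type and less RNA per cell give the same sums, the libraries cannot tell them apart.

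In each of the 5 complexes the nuclear sum was higher in the leukemic libraries. Nuclear subunits of complex I summed to 6802, 6725, 8395 and 8852 CPM and those of complex II to 446, 445, 563 and 506. Complex III stood at 2181, 2235, 2924 and 3387, complex IV at 5728, 5864, 7416 and 8424 and complex V at 7415, 7303, 9503 and 10439.6 CPM. Both leukemic libraries lay above WT and preleukemic in all 5 sums, and T-ALL#2 lay above T-ALL#1 in all but complex II. The mitochondrially encoded sums did not follow that order. Complex I subunits of the mitochondrial genome were at 9641, 9759, 11875 and 11889 CPM and mt-Cytb, its complex III subunit, at 4215, 4199, 5622 and 5092, again higher in the leukemias, whereas the complex IV sum of 22758, 23875, 25452 and 21993 was lowest in T-ALL#2 and the complex V sum of 9726, 10169, 12592 and 9767 was close to WT in T-ALL#2.

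The limit of 10% acts on the mitochondrially encoded members themselves, because the 13 genes counted by it are exactly these members. Cells removed by it numbered 1024, 1022, 1470 and 721, and 494, 298, 487 and 83 of the kept cells lay between 8% and 10%. Removed cells were shallower, with medians of 1144, 1661, 2311.5 and 4576 UMIs. Their nuclear members took a smaller part of the UMIs of nuclear genes, at 9471, 12554, 23334 and 19584 CPM over nuclear UMIs, against 23669, 23712, 30494 and 33228 in the kept cells. Without the limit, the mitochondrially encoded sum became 54147, 57259, 68176 and 70689.5 CPM, so T-ALL#2 moved from close to WT to the highest place. Levels of these 13 genes are therefore given as levels under that limit.

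The share of nuclear members moved with the number of UMIs in a cell within every library. When the cells of a library were ranked by UMIs and cut into 5 equal bins, the nuclear sum went from 8051 CPM in the lowest to 26782 in the highest bin of WT, from 14984 to 27100.0 in preleukemic, from 22305 to 30812 in T-ALL#1 and from 22622 to 33585 in T-ALL#2. Of the nuclear members of at least 10 CPM in a library, 71 of 75, 55 of 75, 28 of 74 and 43 of 75 were over 1.5-fold higher in the highest bin, and 0, 0, 1 and 2 were as much lower, beside 30.3, 20.0, 21.3 and 23.9% of all genes higher and 40.6, 38.3, 36.4 and 28.3% lower. Their median log2 ratio of highest to lowest bin was 1.72, 0.82, 0.51 and 0.64, against -0.25, -0.31, -0.24 and -0.08 over all genes. The mitochondrially encoded members had medians of -0.72, -0.04, 0.01 and 0.15, and in WT their sum was 74525 CPM in the lowest bin against 44503 in the highest. Cytosolic ribosome genes had medians of 2.16, 0.91, 0.50 and -0.02 and mitochondrial ribosome genes 1.31, 0.79, 0.61 and 0.62. The highest bin was also the one with most cycling cells, 62.4, 70.4, 96.5 and 95.9% against 7.47, 7.45, 13.6 and 27.1% in the lowest. A cell was called cycling from 1 UMI of Mki67 or Top2a, so the call itself depends on depth. More RNA in a cell and a better captured cell cannot be told apart here, and the results below give the depth of the cells they compare.

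**Figure D1:**
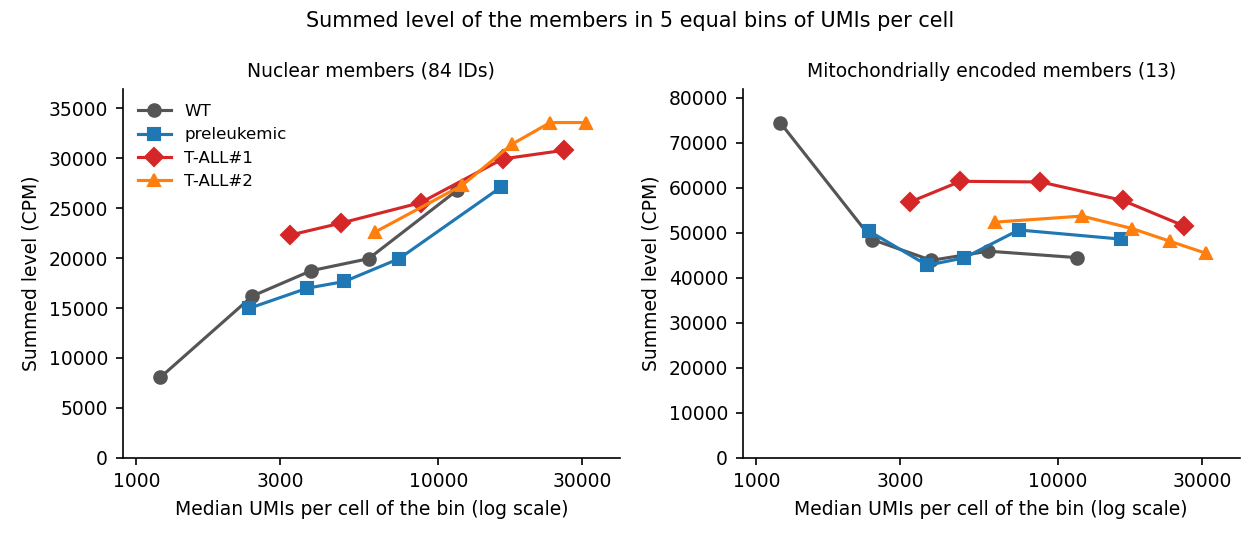
Summed CPM (vertical axes, from 0) of the nuclear members (left) and the mitochondrially encoded members (right) in 5 equal bins of cells by UMIs, each point placed at the median UMIs per cell of its bin (horizontal axis, log scale), with 1 line per library. The nuclear sum was higher in the highest than in the lowest bin in all 4 libraries, by most in WT (8051 to 26782 CPM), while the mitochondrially encoded sum of the lowest WT bin stood above all other bins.

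Preleukemic and WT thymus had close levels of nearly all members. Of the 88 members with a mean of at least 10 CPM, 1 was over 1.5-fold higher in preleukemic and 0 were as much lower, beside 7.00% of the 7753 genes at that level higher and 8.69% lower. With 1 library a group there is no test. The median log2 ratio of nuclear members was 0.00, against -0.03 over all genes. The member past the fold was Cox6b2, a cytochrome c oxidase subunit isoform known from testis, at 12.2 CPM in WT and 26.0 in preleukemic, a ratio of 2.14 (95% counting interval 1.87 to 2.44). Next in size were Ndufa6, an accessory subunit of complex I, at 260.2 and 348 CPM, and mt-Atp8, a small subunit of the ATP synthase membrane part, at 179 and 235 CPM. Atp5g2, which encodes subunit c of the ATP synthase ring, was at 414 and 529 CPM, and Atp5f1, of its peripheral stalk, at 445 and 543.

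On the other side stood Cox6a1, a ubiquitous complex IV subunit, at 362 CPM in WT and 268 in preleukemic. Ndufv3, an accessory subunit beside the NADH site of complex I, was at 188 and 145 CPM and Ndufa4 at 505 and 397. Atp5g3, a paralog of Atp5g2 with the same mature protein, was at 381 and 309.6 CPM, and Ndufs8, an iron-sulfur subunit of complex I, at 81.6 and 67.0. None of these reached 1.5-fold. With TMM scaling the counts were again 1 higher and 0 lower, beside 8.07 and 7.50% of genes. When only cells of 5000 to 10000 UMIs were compared, the nuclear sum was 20636 CPM in WT and 19302 in preleukemic and 5 members were over 1.5-fold lower, beside 11.3% of all genes. Atp5g1 was among the levels that moved, at 281 CPM in WT and 179 in preleukemic cells of that depth.

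Leukemic thymus had higher levels of most nuclear members than preleukemic thymus, while in CPM the genes as a whole lay the other way. In both leukemic libraries 13 of 88 members were over 1.5-fold higher and 3 were as much lower, beside 5.79% of genes higher and 20.5% lower. The median log2 ratio of nuclear members, averaged over the leukemias, was 0.43 against -0.29 over all genes. By complex, 4 of 36 nuclear members of complex I were higher (median 0.40), 0 of 4 of complex II (0.32), 2 of 8 of complex III (0.52), 2 of 12 of complex IV with 1 lower (0.46), and 4 of 15 of complex V (0.47). Of the mitochondrially encoded members 1 was higher and 2 were lower (median 0.12). Both ratios share the preleukemic library, so that library counts in each of them, and no test was made. T-ALL#2 taken alone had 25 members higher and 3 lower, beside 8.76 and 42.9% of genes. T-ALL#1 alone had 15 and 6, beside 11.1 and 22.2%.

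Atp5g1, which encodes subunit c of the ATP synthase ring, had the largest ratio of these 88 members, with levels of 297, 283, 547 and 665 CPM. Cox8a, the ubiquitous form of a small complex IV subunit, was at 615, 572, 952 and 1215 CPM, and Cox5a, a regulatory subunit of the same complex, at 422, 414, 709.9 and 757. For these members both leukemic libraries stood well above WT and preleukemic, which were close to each other. Ndufa12, an accessory subunit of complex I, was at 195, 172, 278 and 330.0 CPM, and Uqcrq, a small subunit of complex III, at 329.5, 272, 436 and 518 CPM. The other members past the fold in both leukemias, named after their values were seen, were Ndufb5, Ndufb8 and Ndufv1 of complex I, Uqcrfs1 (the Rieske iron-sulfur protein) of complex III, Atp5d, Atp5g2 and Atp5h of complex V, and mt-Nd1.

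The members lower in both leukemias were mt-Atp8 at 179, 235, 84.8 and 123 CPM, mt-Nd4l, a small complex I subunit, at 348, 397, 176 and 235, and Cox6b2 at 12.2, 26.0, 8.47 and 16.0. For mt-Atp8 and mt-Nd4l both leukemic libraries lay below both others, whereas Cox6b2 in T-ALL#2 lay above WT. Next came Ndufa3, an accessory subunit of complex I, at 197, 184, 91.3 and 136 CPM, and Atp5k, subunit e of the ATP synthase, at 435, 395, 215 and 323, both past the fold in T-ALL#1 alone. The coordinates of mt-Atp8 overlap those of mt-Atp6, and the coordinates of mt-Nd4l those of mt-Nd4, so counts of these small genes are uncertain. Scaling by TMM (trimmed mean of M-values, which centres the bulk of genes) raised the log2 ratios by 0.26 for T-ALL#1 and by 0.50 for T-ALL#2. It gave 46 members higher and 0 lower, beside 17.1 and 10.5% of genes, with a median of 0.81 for nuclear members and 0.10 over all genes. Under it mt-Atp8 (-1.21 and -0.43), mt-Nd4l (-0.91 and -0.26) and Cox6b2 (-1.36 and -0.20) kept a ratio below 0 in both leukemias, while Ndufa3 (-0.76 and 0.06) and Atp5k (-0.62 and 0.21) turned above 0 in T-ALL#2.

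The mitochondrial genome is copied into long shared transcripts, yet its 13 members did not move together between libraries. In complex I, mt-Nd1 was at 2643, 2371, 3630.3 and 4069.5 CPM and mt-Nd5 at 412, 433, 478 and 617, higher in both leukemias than in both others. The levels of mt-Nd2 were 2609, 2847, 3151 and 3053 CPM, those of mt-Nd3 875, 808, 779 and 835 and those of mt-Nd4 2709, 2861, 3634 and 3049.6. On the opposite strand of that genome, mt-Nd6 was at 45.3, 42.3, 26.5 and 30.4 CPM. In complex IV, mt-Co1 was at 6007, 6450.4, 4788 and 4623 CPM, lower in both leukemias, with mt-Co2 at 7003, 7332, 8970.1 and 7073 and mt-Co3 at 9749, 10092, 11693 and 10298. In complex V, mt-Atp6 was at 9548, 9934, 12507 and 9644 CPM. The count of its neighbour mt-Atp8 was lower in the leukemias, but is uncertain because the coordinates of these genes overlap. The same limit holds for mt-Nd4l beside mt-Nd4. Under TMM scaling the log2 ratios of mt-Co1 (-0.17 and 0.02) and mt-Nd6 (-0.41 and 0.02) no longer had 1 sign in both leukemias.

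Members with the most and the fewest UMIs in each complex, which are not compared with each other because 3′ counts were not set against length, showed the common pattern with exceptions. In complex I, Ndufa4 (now known to sit in complex IV, placed by its symbol) was at 505, 397, 612 and 588 CPM and Ndufa6 at 260.2, 348, 371 and 350.0, and Ndufs1, an iron-sulfur subunit of the electron path, at 55.2, 50.6, 61.5 and 41.1. In CPM, Ndufs1 was thus lower in T-ALL#2 than in any other library. Its log2 ratio of T-ALL#2 to preleukemic was -0.30 in CPM and 0.20 after TMM scaling. In complex II, the iron-sulfur subunit Sdhb was at 151, 134, 186 and 169 CPM and the membrane anchors Sdhd and Sdhc at 105, 119, 152 and 149.9 and at 65.8, 68.0, 85.3 and 81.5. In complex III, the hinge protein gene Uqcrh was at 585, 671, 782 and 853 CPM and the core protein gene Uqcrc1 at 137, 131, 188 and 165. In complex IV, Cox6c was at 732, 786, 957 and 1022 CPM. In complex V, Atp5b, the catalytic beta subunit, was at 862, 860.5, 1248 and 1130.1 CPM and Atp5h, of the peripheral stalk, at 794, 663, 1051 and 1003.

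Leukemic cells held more UMIs than preleukemic cells, and a larger share of them was called cycling. The shares were 20.6, 23.8, 47.9 and 61.9% in the 4 libraries. The call rests on 1 UMI of Mki67 or Top2a and so depends on depth. In cells of at least 2000 UMIs, thinned to 2000 UMIs, the shares were 18.2, 13.8, 31.0 and 27.1%. This left out 991, 350, 94 and 0 shallower cells, so the sets of cells differ from those above. Both leukemias then still lay above preleukemic, but preleukemic lay below WT and T-ALL#2 below T-ALL#1. Barcodes of T-ALL#2 were taken as cells from 3416 UMIs, while the smallest in the other libraries held 500, 503 and 503 UMIs, which bears on its depth. With a minimum of 3416 UMIs in all libraries, the nuclear sum was 24115, 23225, 28989 and 31609 CPM. In cells of 5000 to 10000 UMIs the nuclear sum was 20636, 19302, 24483 and 23412 CPM, so both leukemias stayed above the others while the distance between T-ALL#2 and preleukemic became smaller. There 6 members were over 1.5-fold higher in both leukemias and 3 were lower, beside 5.14 and 15.9% of genes, and with TMM scaling 21 and 1, beside 9.54 and 10.5%. At that depth Atp5g1 was at 281, 179, 364 and 294 CPM and Cox8a at 502, 476, 742 and 853, so Atp5g1 in T-ALL#2 was near WT and Cox8a was not. In cells without a UMI of Mki67 or Top2a, the nuclear sum was 18428, 18907, 24604 and 29031.5 CPM. At a fold of 2 in both leukemias, 0 of the 88 members of at least 10 CPM were past it in either direction. Of all genes at that level, 2.23% were higher and 8.55% lower.

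**Figure D2:**
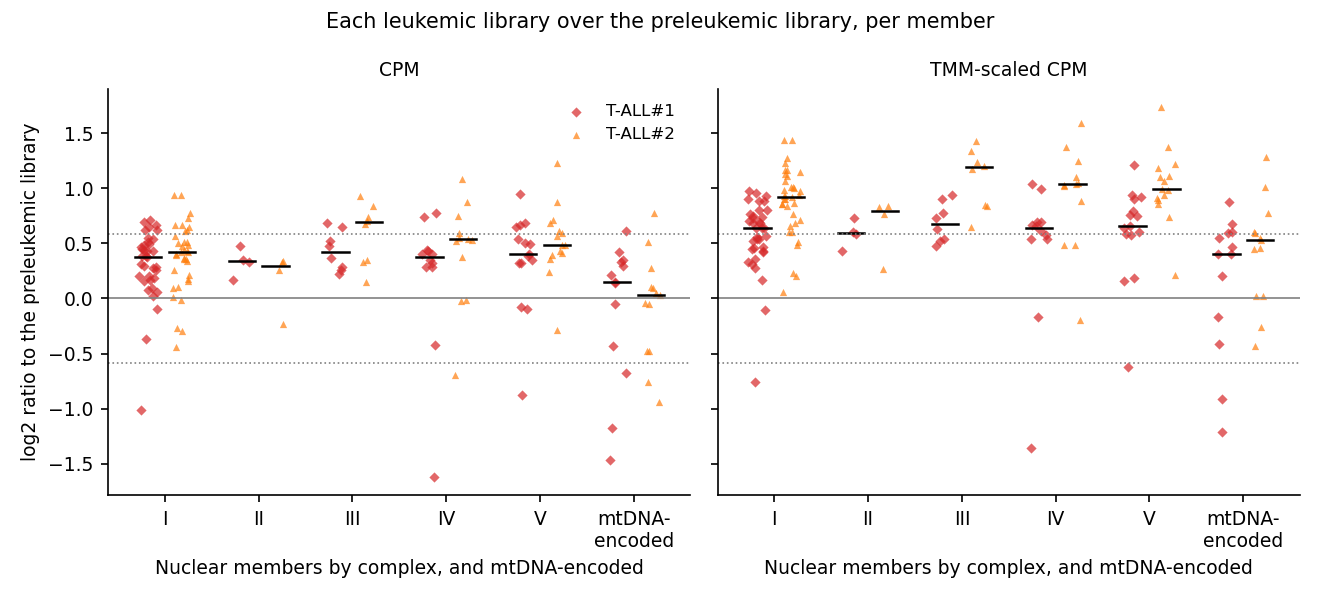
Log2 ratio of each leukemic library to the preleukemic library (vertical axis) for the 88 members of at least 10 CPM, nuclear members by complex and mtDNA-encoded members apart (horizontal axis), as CPM (left) and after TMM scaling (right). Each point is a member, black bars are medians and dotted lines mark 1.5-fold. Most nuclear points lie above 0, and TMM scaling moves T-ALL#1 up by 0.26 and T-ALL#2 by 0.50.

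Some subunits have isoform genes, and a rare isoform gene had far more UMIs in the leukemias than elsewhere. Cox4i2, the isoform of complex IV subunit 4 known from lung and from low oxygen, had 20, 10, 471 and 510 UMIs, that is 0.832, 0.245, 6.66 and 14.1 CPM, in 16, 10, 410 and 369 cells (0.379, 0.179, 7.10 and 18.7% of cells). Its ratio to preleukemic was 27.2 in T-ALL#1 (95% counting interval 14.7 to 57.1) and 57.5 in T-ALL#2 (31.0 to 121), and to WT 8.0 (5.12 to 13.2) and 16.9 (10.8 to 27.9). In cells of 5000 to 10000 UMIs the levels were 1.28, 0.0945, 4.61 and 4.56 CPM, where T-ALL#2 had 12 UMIs, WT 9 and preleukemic 1, and the ratios to WT became 3.61 (1.72 to 8.47) and 3.57 (1.38 to 9.60). The mean was under 10 CPM, so Cox4i2 is not among the 88 members counted above. The ubiquitous form Cox4i1 was at 769, 789.8, 1066 and 1148 CPM. Within the leukemias, Cox4i2 was at 7.25 CPM in cycling and 5.06 in non-cycling cells of T-ALL#1 and at 14.9 and 11.7 in those of T-ALL#2, and it did not pass the test of cycling described below.

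Cox6b2 showed another pattern, higher in preleukemic than in any other library. In Il2ra-detected cells without Cd4 and Cd8a it was at 51.5, 35.3, 8.92 and 15.9 CPM, against 11.95, 18.9, 7.30 and 21.7 in cells with both Cd4 and Cd8a. The WT value rests on 40 UMIs in 54 cells (95% interval 36.8 to 70.1 CPM), and the order of the gates was reversed in T-ALL#2. The fitted difference between these gates was 0.73 ± 0.401 (SE; edgeR adjusted p = 0.299), which does not pass. Its ubiquitous partner Cox6b1 was at 440.1, 461, 560.3 and 697 CPM.

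Muscle and heart isoforms had low levels. Cox7a1 was at 3.20, 6.90, 2.63 and 4.08 CPM and had most UMIs in preleukemic, beside 499, 456, 604 and 652 for the widely expressed Cox7a2 and 384, 421, 538 and 416 for Cox7a2l, which is known to help join complexes III and IV into supercomplexes. Cox6a2 had 18, 11, 17 and 7 UMIs, against 362, 268, 363 and 391 CPM of Cox6a1. Cox8b and Cox8c, isoforms of Cox8a from muscle and testis, were at 0 UMIs in all libraries, as were Cox7b2 and the second identifier of Atp5o, ENSMUSG00000116933, and Ndufa4l2, known to be induced by low oxygen, had 1 UMI, in T-ALL#2. Atp5s, a coupling factor of the ATP synthase, was the remaining member under 10 CPM, at 6.28, 7.54, 3.36 and 2.32 CPM, with ratios to preleukemic of 0.446 (0.375 to 0.530) in T-ALL#1 and 0.307 (0.239 to 0.393) in T-ALL#2.

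The genes for subunit c, Atp5g1, Atp5g2 and Atp5g3, encode the same mature protein behind different import signals, and their levels did not move in step. Atp5g2 was at 414, 529, 849.9 and 868 CPM and Atp5g3 at 381, 309.6, 435 and 473, beside those of Atp5g1 given above. All 3 were higher in both leukemias than in preleukemic, but only Atp5g2 was also higher in preleukemic than in WT. The inhibitor of the synthase, Atpif1, was at 293, 437, 402 and 536 CPM, lowest in WT.

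**Figure D3:**
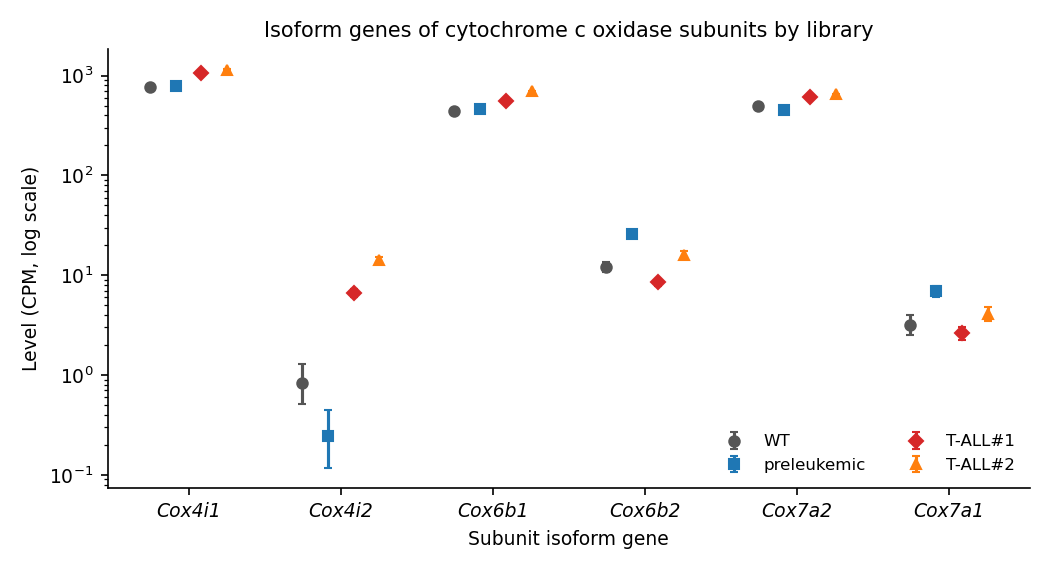
Level (CPM, log axis) of isoform genes of cytochrome c oxidase subunits in the 4 libraries, with exact Poisson 95% intervals that cover counting error only. Cox4i2 stood at 6.66 and 14.1 CPM in T-ALL#1 and T-ALL#2 against 0.832 in WT and 0.245 in preleukemic, while the levels of Cox4i1, Cox6b1 and Cox7a2 spanned a far narrower range.

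Cycling cells, those with a UMI of Mki67 or Top2a, had higher levels of most nuclear members than the other cells of the same library. UMIs were summed per library and state, and the 8 sums were compared by edgeR's quasi-likelihood test with the library as a block. The test called 65 of 91 members higher and 1 lower, beside 24.8% of 12838 genes higher and 24.3% lower. The median fitted log2 change of the 78 nuclear members tested was 0.59 against -0.05 over all genes. Higher were 30 of 36 nuclear members of complex I, 4 of 4 of complex II, 6 of 8 of complex III, 9 of 14 of complex IV with 1 lower, and 15 of 16 of complex V. Of the 13 mitochondrially encoded members 1 was called higher, mt-Nd1, at 0.37 ± 0.120 (SE; edgeR adjusted p = 0.0354), and their median was 0.18. After TMM scaling 66 nuclear members were higher in the cycling cells of all 4 libraries and 1 was lower in all. In CPM these counts were 63 and 3, beside 22.0 and 40.4% of all genes in CPM. The share over all genes after TMM scaling was not computed. Of the mitochondrially encoded members 7 were higher in all 4 libraries after TMM scaling and 0 lower, and in CPM 2 and 5.

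The summed levels gave the same picture for nuclear and another for mitochondrially encoded members. Nuclear members summed to 27690.1, 26950.2, 30360 and 32474 CPM in cycling and 18428, 18907, 24604 and 29032 in non-cycling cells, a log2 ratio of 0.59, 0.51, 0.30 and 0.16. The difference was thus largest in WT and smallest in T-ALL#2, and whether it differs between groups was not tested. The mitochondrially encoded members summed to 43614, 47442, 54034 and 47999 CPM in cycling and 48547, 48472, 59592 and 50951 in non-cycling cells, log2 ratios of -0.15, -0.03, -0.14 and -0.09. Their direction depends on the scaling, since the CPM ratios lie below 0 and the median after TMM scaling lies above it.

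Cox5a had the largest fitted change. It stood at 608 against 271 CPM in WT, 585 against 270.1 CPM in preleukemic, 796 against 478 CPM in T-ALL#1 and 820.1 against 570.4 CPM in T-ALL#2 in cycling against non-cycling cells, a log2 change of 1.07 ± 0.153 (SE; edgeR adjusted p = 0.00120). The cycling cells were higher in each library, and the smallest distance was in T-ALL#2. Ndufa12 stood at 263 against 140.3 CPM in WT, 238 against 117 CPM in preleukemic, 305 against 206 CPM in T-ALL#1 and 346 against 283 CPM in T-ALL#2, a change of 0.88 ± 0.157 (SE; edgeR adjusted p = 0.00301). Ndufa4 stood at 661 against 378 CPM in WT, 529 against 287 CPM in preleukemic, 682 against 423 CPM in T-ALL#1 and 624 against 482 CPM in T-ALL#2, a change of 0.87 ± 0.136 (SE; edgeR adjusted p = 0.00167). For both members, cycling cells were higher than non-cycling cells in each library, and cycling WT and preleukemic cells also lay above the non-cycling cells of T-ALL#1.

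Atp5g1, which also had the largest leukemic ratio among the 88 members of at least 10 CPM, stood at 363 against 244 CPM in WT, 391 against 192 CPM in preleukemic, 606 against 388 CPM in T-ALL#1 and 709.6 against 532 CPM in T-ALL#2, a change of 0.85 ± 0.141 (SE; edgeR adjusted p = 0.00222). Atp5j, coupling factor 6 of the ATP synthase stalk, stood at 659 against 364 CPM in WT, 585 against 354 CPM in preleukemic, 640.3 against 431 CPM in T-ALL#1 and 646 against 503 CPM in T-ALL#2, a change of 0.81 ± 0.130 (SE; edgeR adjusted p = 0.00187). Cycling cells were higher in all 4 libraries for both. Changes of the same size were found for Uqcrq, 0.85 ± 0.127 (SE; edgeR adjusted p = 0.00145), and for the complex I accessory subunits Ndufc1, 0.83 ± 0.138 (SE; edgeR adjusted p = 0.00217), and Ndufb6, 0.83 ± 0.127 (SE; edgeR adjusted p = 0.00155).

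The member called lower was Cox7a2l, at 325 against 432 CPM in WT, 355 against 477 CPM in preleukemic, 472 against 714 CPM in T-ALL#1 and 383 against 516 CPM in T-ALL#2, a change of -0.28 ± 0.0978 (SE; edgeR adjusted p = 0.0451). Non-cycling cells were higher in every library. It was not called without WT, without preleukemic or without T-ALL#1, nor when cells of very many genes were left out. Among the nuclear members that did not pass were Ndufs4, Ndufa6, Ndufa7, Ndufa13 and Ndufv3 of complex I, Uqcrh and Uqcrc2 of complex III, Cox4i1, Cox4i2, Cox6b2 and Cox7a1 of complex IV, and Atp5s of complex V. For Ndufa6 the fitted change was -0.06 ± 0.110 (SE; edgeR adjusted p = 0.670) and for Cox4i1 0.29 ± 0.122 (SE; edgeR adjusted p = 0.0822).

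Cycling cells were also the deeper cells, with medians of 9866.5, 12890, 18481 and 22654 UMIs against 3280, 4316, 4788 and 11194. Among cells of 5000 to 10000 UMIs, where the medians were 7645, 7340.5, 7602.5 and 7211 in cycling and 6475, 6461, 6535 and 7164.5 in non-cycling cells, the test called 1 of 91 members higher and 0 lower (13 at an unadjusted p under 0.05), beside 4.22 and 1.63% of genes. The nuclear median there was 0.13 and the mitochondrially encoded median -0.05. The member called was Atp5j, at 0.34 (adjusted p = 0.0216). Of the largest changes, Cox5a was at 0.18 (adjusted p = 0.283), Ndufa12 at 0.24 (adjusted p = 0.132), Ndufa4 at 0.20 (adjusted p = 0.221), Ndufc1 at 0.31 (adjusted p = 0.0813) and Atp5g1 at -0.02 (adjusted p = 0.947), where the direction turned. This window holds 206, 264, 298 and 103 cycling cells, far fewer than the whole libraries. Cells of at least 2000 UMIs were also thinned to 2000 UMIs before the states were read, leaving out 991, 350, 94 and 0 cells. There 52 members were called higher and 1 lower, beside 17.6 and 19.2% of genes. Fitted without the library as a block, the sums gave 1 member higher and 0 lower, beside 6.22 and 1.56% of genes.

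Within single UMI bins the distance between the states varied. In the highest bin the nuclear sum was 28791 CPM in cycling and 20962 in non-cycling cells of WT, 28252 and 23196 in preleukemic, 30832 and 30130.3 in T-ALL#1 and 33569.9 and 33970.2 in T-ALL#2. In the lowest bin the values were 9210.1 and 7957 in WT, 13170.2 and 15132 in preleukemic, 22335 and 22300.4 in T-ALL#1 and 22999 and 22477 in T-ALL#2. In bins 3 and 4 the values were 27698 and 24269, and 30673 and 27202, in T-ALL#1, and 31119 and 31867, and 33450 and 34350, in T-ALL#2. In bin 4 the values were 21950 and 19608 in WT and 22350 and 19311 in preleukemic. The cycling cells were higher in every bin of WT and T-ALL#1. They were lower in the lowest bin of preleukemic and in the upper 3 bins of T-ALL#2, and higher in the remaining bins of these libraries. No test was made. Only 40 and 16 non-cycling cells lay in the highest bins of the leukemic libraries.

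**Figure D4:**
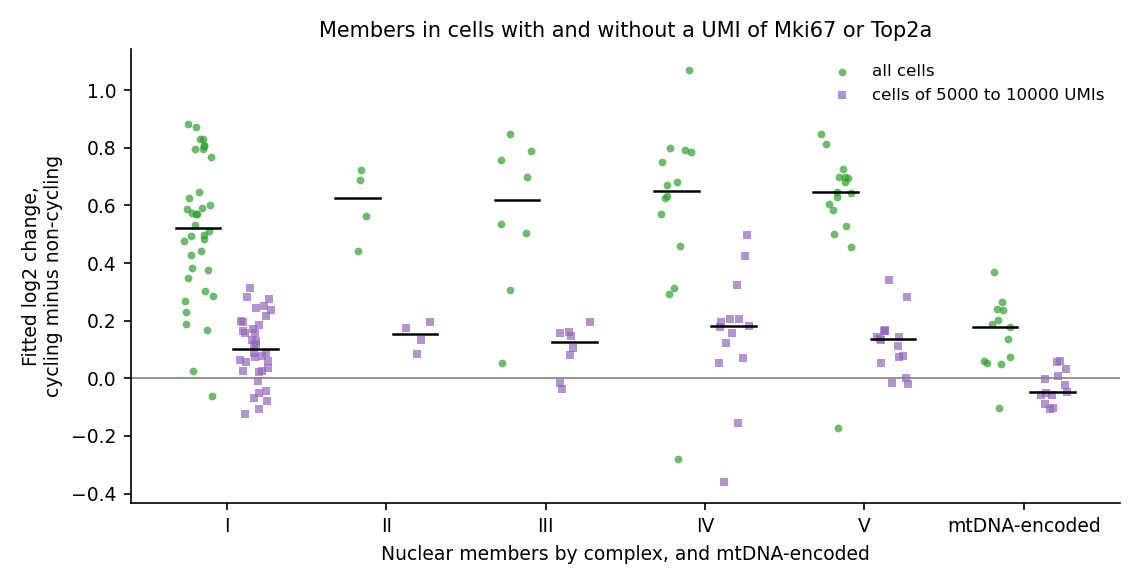
Fitted log2 change between cycling and non-cycling cells (vertical axis, edgeR with library as a block) for the 91 members tested, nuclear members by complex and mtDNA-encoded members apart (horizontal axis). Circles use all cells, squares cells of 5000 to 10000 UMIs, and black bars are medians. The nuclear median over all complexes is 0.59 with all cells and 0.13 within the depth window.

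Detection of Cd4, Cd8a and Il2ra divides thymocytes roughly by stage, since Il2ra marks early double-negative cells and Cd4 with Cd8a the double-positive stage. Nuclear members summed to 26136, 25194, 29232 and 32349 CPM in cells with Il2ra and no UMI of the coreceptors, to 23255, 24560.5, 29914 and 32170.1 in cells with Cd8a and not Cd4, to 23303, 25216, 28015 and 29447 in cells with both, to 20624, 22923, 27475 and 29254 in cells with Cd4 and not Cd8a, and to 20987, 20437, 27410.4 and 29047 in cells with none of the 3. The last gate was lowest in preleukemic, T-ALL#1 and T-ALL#2, and Cd4 alone was lowest in WT, though in both leukemias these 2 gates lay within counting error of each other. A UMI not found does not show that a transcript is absent, and the gates differ in depth. The mitochondrially encoded sums ran from 45411 to 48958 CPM in WT, from 46803 to 49948 in preleukemic, from 53011 to 57221 in T-ALL#1 and from 46694.5 to 51119.9 in T-ALL#2, a narrower range in proportion than that of the nuclear sums in WT and preleukemic.

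Cell numbers differed between gates and libraries. The Il2ra gate held 54, 465, 388 and 498 cells and the gate with both coreceptors 2096, 201, 2408 and 242. Within non-cycling cells, the nuclear sum of the Il2ra gate was 21484, 20726, 24474 and 30037 CPM and that of the gate with both coreceptors 16927, 19613, 24302 and 25305. Within cycling cells these sums were 29459.6, 27800.5, 30182 and 32925 and 28178, 27749, 30064 and 31362. Resting double-positive cells of WT had the lowest nuclear sum of these groups, and the gates lay within a smaller range among cycling cells.

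Between the Il2ra gate and the gate with both coreceptors, edgeR called 2 of 91 members higher and 0 lower, beside 2.02% of 11207 genes higher and 2.03% lower, a share of members close to that of all genes. At an unadjusted p under 0.05 there were 26 members, and the nuclear median was 0.17, the mitochondrially encoded 0.10. Atp5g1 stood at 549 against 236 CPM in WT, 391 against 279.5 CPM in preleukemic, 625 against 484 CPM in T-ALL#1 and 715 against 533 CPM in T-ALL#2 in the Il2ra gate against the other, a log2 difference of 0.70 ± 0.149 (SE; edgeR adjusted p = 0.0479). Uqcrb, a ubiquinone-binding subunit of complex III, stood at 378 against 252 CPM in WT, 327 against 259 CPM in preleukemic, 417 against 337 CPM in T-ALL#1 and 473 against 399 CPM in T-ALL#2, a difference of 0.45 ± 0.0971 (SE; edgeR adjusted p = 0.0480). The Il2ra gate was higher in all 4 libraries for both members. Their calls were lost, with 0 members called, without preleukemic, without T-ALL#1, without T-ALL#2 and without the library as a block. They did not hold in cells of 5000 to 10000 UMIs, where 0 of 88 members were called in either direction by edgeR (5 at an unadjusted p under 0.05), beside 0.0702% of genes each way, and the nuclear median was -0.10. That window held 26, 127, 43 and 38 cells of the Il2ra gate and 229, 52, 627 and 89 of the other. Whether these fewer cells or their depth removed the calls was not tested. DESeq2 called 19 members with all cells, beside 708 of 9034 genes higher and 491 lower. On cells thinned to 2000 UMIs, edgeR called 3 higher and 0 lower, beside 3.01 and 1.52% of genes. Median depth was 8995.5, 9958, 15865.5 and 21637 UMIs in the Il2ra gate and 2889.5, 6574, 5464.5 and 10795.5 in the other.

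**Figure D5:**
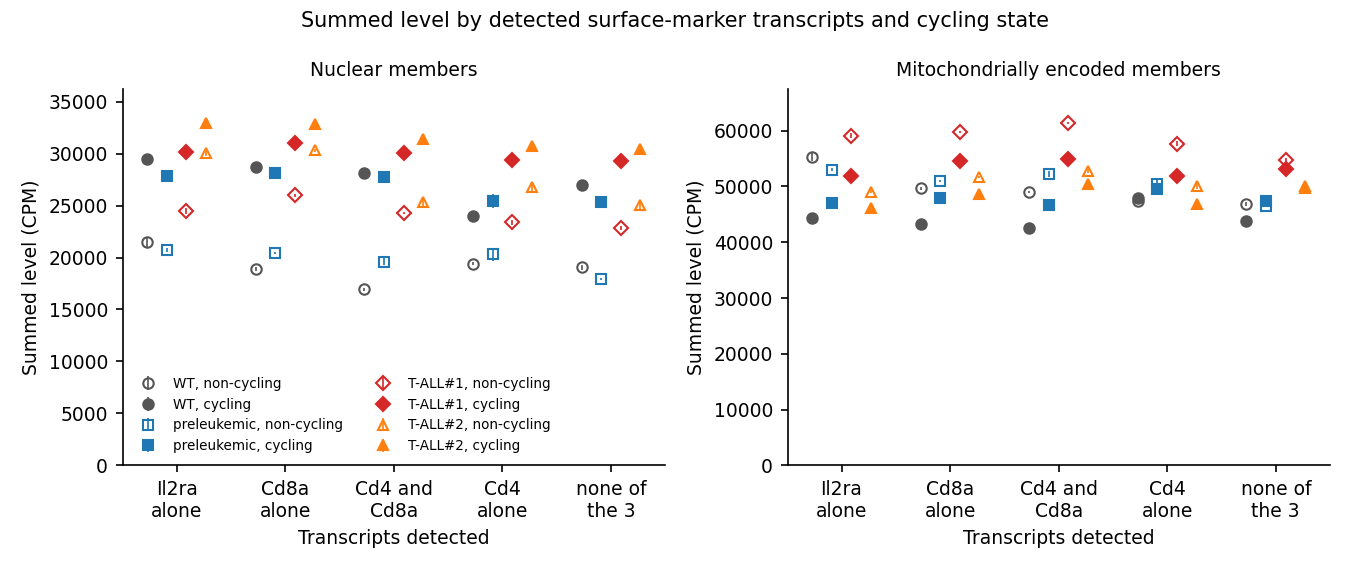
Summed CPM (vertical axes, from 0) of nuclear members (left) and mitochondrially encoded members (right) by detected transcripts of Il2ra, Cd4 and Cd8a (horizontal axis), with exact Poisson 95% intervals for counting error. Filled points are cycling and open points non-cycling cells, with 1 colour and shape per library. Open nuclear points lie below the filled points of the same library and gate throughout, from 16927 against 28178 CPM in WT cells with Cd4 and Cd8a to 30317 against 32807 in T-ALL#2 cells with Cd8a alone.

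Other lists of mitochondrial genes also had more genes higher than lower in cycling cells. In the test of cycling, where 24.8% of all genes were called higher and 24.3% lower, 70 of 78 genes of the mitochondrial ribosome were higher and 0 lower (median 0.59), 12 of 13 protein import genes and 0 (0.64), 14 of 19 genes of the TCA cycle and 0 (0.47), and 12 of 16 electron carrier genes and 1 (0.75). Assembly factors had smaller counts, with 8 of 14 higher and 0 lower for complex I (0.36), 8 of 25 and 3 for complexes III and IV (0.21), and 4 of 7 and 0 for complexes II and V (0.40). Upkeep of the mitochondrial genome had 5 of 12 and 2 (0.23), and the regulators had 3 of 8 and 0 (0.37). Outside the mitochondrion, 8 of 16 glycolysis genes were higher and 1 lower (0.39), and 13 of 76 genes of the cytosolic ribosome and 0 (0.23), a share of higher genes below that of all genes. Atpif1 was called higher, at a fitted change of 0.73. Among cells of 5000 to 10000 UMIs, where 4.22% of all genes were called higher, 3 of 77 mitochondrial ribosome genes, 1 of 16 electron carrier genes, 1 of 12 genome upkeep genes and 2 of 15 glycolysis genes were called higher, 0 genes of the other lists were, and 0 were lower. The share of the mitochondrial ribosome was close to that of all genes, and Atpif1, at 0.35, was not called there. Between the Il2ra gate and the gate with both coreceptors, where 2.02% of all genes were called higher and 2.03% lower, 3 of 78 mitochondrial ribosome genes, 2 of 14 complex I assembly factors, 1 of 16 electron carrier genes, 3 of 13 import genes, 5 of 76 cytosolic ribosome genes and 3 of 15 glycolysis genes were called higher, and 1 glycolysis gene lower.

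Between leukemic and preleukemic thymus, glycolysis had the highest median of these lists. Past 1.5-fold in both leukemias were 8 of 13 glycolysis genes higher and 1 lower (median log2 ratio 0.94), 10 of 77 mitochondrial ribosome genes and 0 (0.33), 6 of 15 electron carrier genes and 0 (0.50), 3 of 13 import genes and 0 (0.37), 5 of 76 cytosolic ribosome genes and 2 (0.50), and 1 of 19 genes of the TCA cycle and 0 (0.21). Assembly factors had 0 of 12 and 1 for complex I (-0.04), 1 of 20 and 2 for complexes III and IV (0.12), and 1 of 7 and 1 for complexes II and V (-0.09). Genome upkeep had 0 of 10 and 1 (-0.07) and the regulators 0 of 8 in either direction (-0.20). These counts stand beside the 5.79% higher and 20.5% lower of all genes given above, and no list was tested as a set.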

How the data were processed

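Thymus cells of 4 mice were measured, 1 library each. Per the labels the genome was mm10 and the tool Cell Ranger, and per the file headers the authors used Cell Ranger 3.0.2 for WT, preleukemic and T-ALL#1, deposited as called cells, and version 4 for T-ALL#2, deposited as all 1791965 barcodes. The deposited values are counts, that is UMIs per gene and barcode with no normalization. T-ALL#2 barcodes counted as cells from 3416 UMIs, that is 1/10 of the UMIs at percentile 99 of the 10000 largest barcodes. Cells were kept with over 500 genes and under 10% mitochondrial UMIs. The upper limit on genes in the study's methods was used as an alternative, and cell numbers differ from the study's. Doublets were not called.

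Levels are CPM of UMIs summed over cells, with exact Poisson or binomial 95% intervals, which cover counting error only. UMIs summed per library and state, or per library and gate (8 sums each), were tested in R 4.3.3 with edgeR 4.0.16 (quasi-likelihood, TMM, filterByExpr, library as a block, Benjamini-Hochberg over all genes, threshold 0.05), which was tested on simulated counts first. The p-values measure the spread over 4 mice of 3 kinds. The block stands for the mouse, since both sums of a library come from 1 mouse. Between libraries there is no test, and a member counts as past the fold at 1.5-fold with a mean of at least 10 CPM. DESeq2 1.42.0, other scalings, cell filters and depths were alternatives. Python 3.11.15 was used for sums.

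Members and lists (assembly factors, electron carriers, TCA cycle, mitochondrial ribosome, genome upkeep, regulators, import, glycolysis, cytosolic ribosome) were chosen with earlier results of these data known. Members named were the 13 mitochondrially encoded ones, the 2 of most and the 1 of fewest UMIs per complex, those under 10 CPM, the 8 called with the largest change in each direction, the 5 at each end of each library comparison, and the isoform genes. Others were named after their values were seen. Promoter windows are RefSeq's for GRCm38.p6, and coordinates of genes those of GENCODE M21.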

Additional observations from a re-analysis of the deposited data

Results flagged for a closer look

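In T-ALL#2, the library deposited with all barcodes, the 1187978 barcodes under 100 UMIs hold 1814232 UMIs that no comparison used. The mitochondrially encoded members made up 248194 CPM of these UMIs, against 48741 CPM in the kept cells of T-ALL#2, and this signal in unused barcodes is what drew attention. Nuclear members stood at 24964 CPM there, against 31609 CPM in the kept cells. The other libraries were deposited as called cells, so the same value was not computed for them.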

How the results depend on the processing

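For preleukemic against WT, 1 member higher and 0 lower was the count under all alternatives fixed at the start except a minimum of 1 CPM. That minimum gave 2 higher and 1 lower, beside 11.4 and 13.2% of genes. Of those added after seeing the data, cells of 5000 to 10000 UMIs gave 5 lower, beside 11.3% of genes, and TMM scaling within them 7 lower, beside 12.6%. For leukemic against preleukemic (13 higher, 3 lower, beside 5.79 and 20.5% of genes), TMM scaling gave 46 and 0, beside 17.1 and 10.5%. A mean over cells gave 21 higher and 4 lower, beside 8.60 and 22.0% of genes, and a fold of 2 gave 0 and 0, beside 2.23 and 8.55%. No limit on mitochondrial UMIs gave 12 and 1, beside 5.86 and 20.6%, and a minimum of 1 CPM 14 and 5, beside 7.63 and 26.0%. Cells of 5000 to 10000 UMIs gave 6 and 3, beside 5.14 and 15.9%, and TMM scaling within them 21 and 1, beside 9.54 and 10.5%. Leaving out T-ALL#1 gave 25 higher and 3 lower, beside 8.76 and 42.9% of genes. Leaving out T-ALL#2 gave 15 and 6, beside 11.1 and 22.2%.

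For cycling against non-cycling cells (65 higher, 1 lower), cells of 5000 to 10000 UMIs gave 1 and 0 and reversed Atp5g1 to a log2 change of -0.0201. Whether fewer cells or their narrower range of depth removed the calls was not tested. Without the replicate block, which here stands for the mouse, 1 member was higher and 0 lower, beside 6.22 and 1.56% of genes. Leaving out 1 library gave 51 to 70 higher and 0 to 1 lower, beside 2209 to 3048 of all genes higher and 2173 to 3260 lower. The upper limit on genes gave 0 lower, beside 3306 of 12769 genes. DESeq2 gave 66 higher, beside 2911 of 12589 genes. Other size factors gave 64, beside 2953 of 12838 genes, and thinned cells 52, beside 1859 of 10582.

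For the Il2ra gate against the gate with both coreceptors (2 higher, 0 lower), there were 0 higher without the replicate block, without a limit on mitochondrial UMIs and in cells of 5000 to 10000 UMIs. Leaving out 1 library gave 0 to 2, with 2 left only without WT. The upper limit on genes gave 1, beside 67 of 11330 genes higher, and non-cycling cells alone 5, beside 356 of 9607. No low-count filter gave 6, beside 620 of 17550 genes, and DESeq2 19, beside 708 of 9034. The causes were not tested. Of values of single members, 281 kept their side and direction, 33 lost their call, 59 moved and 1 reversed. Depth limits the shallow WT cells most, and 1 mouse each for WT and preleukemic, and 2 for the leukemic group, limit all comparisons between libraries.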
